A study of Homo sapiens with 4 samples.

Results

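Genes for chromatin remodelers and for enzymes that add or remove histone methyl groups were followed in HGC27, a human gastric cancer cell line, after knockdown of AARS1, the alanyl-tRNA synthetase of the cytosol. The members were chosen by symbol, as the CHD, SMARC, ARID, KMT2, SETD and KDM genes of the deposited expression table. This gave 62 of the 14431 genes listed, namely 9 CHD, 13 SMARC, 9 ARID, 5 KMT2, 10 SETD and 16 KDM genes. RNA was sequenced in 2 control libraries (genotype label WT) and 2 siAARS1 libraries (genotype label AARS1 knockdown, by small interfering RNA), to ask how the transcriptome responds to knockdown of the synthetase. The cells of both groups were kept in glucose-free DMEM with serum and antibiotics and were given 25 mM lactate for 24 h per the labels. The text of the study gives another duration, so the time under lactate is uncertain. The labels do not say what the control cells were transfected with, whether more than 1 siRNA was used, or whether the 2 libraries of a group came from separate cultures, so the p-values measure the spread between these libraries, which may be technical.

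CHD proteins and the SMARCA proteins are motor subunits: they carry a SNF2-type ATPase domain that uses ATP to slide, evict or exchange nucleosomes. The other SMARC proteins and several ARID proteins are partner subunits of SWI/SNF complexes, in which ARID1A or ARID1B marks one form and ARID2 another. KMT2 and SETD proteins carry SET domains, most of which transfer methyl groups from S-adenosylmethionine to lysines such as H3K4 and H3K36, and KDM proteins remove such groups with a Jumonji domain or, in KDM1A and KDM1B, an amine oxidase domain. Genes of these families are often mutated in gastric and other carcinomas, ARID1A among them.

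Coding sequences of the catalytic core of related members are shown because the changes described below were closely related to the base composition of the transcripts. Each line is read 5′ to 3′ on the coding strand of the GENCODE v29 transcript, and the capitals mark the 4 codons of the DExH box (motif II) of the SNF2 ATPase. CHD1, CHD9, SMARCA5 and SMARCAD1 had higher levels in siAARS1, as had CHD2, CHD8 and SMARCA2 to a lesser degree, while SMARCA4 and CHD5 had lower levels.
CHD1: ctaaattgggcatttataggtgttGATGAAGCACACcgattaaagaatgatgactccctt
CHD2: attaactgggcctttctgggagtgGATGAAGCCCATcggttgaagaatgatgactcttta
CHD9: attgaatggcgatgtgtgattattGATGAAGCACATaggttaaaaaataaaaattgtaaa
CHD8: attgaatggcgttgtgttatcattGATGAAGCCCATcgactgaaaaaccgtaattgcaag
SMARCAD1: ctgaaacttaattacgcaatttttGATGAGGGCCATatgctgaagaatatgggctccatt
SMARCA5: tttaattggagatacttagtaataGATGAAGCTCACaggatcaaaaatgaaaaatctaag
SMARCA2: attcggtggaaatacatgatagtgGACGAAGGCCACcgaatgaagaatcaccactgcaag
SMARCA4: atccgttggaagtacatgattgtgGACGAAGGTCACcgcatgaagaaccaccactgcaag
CHD5: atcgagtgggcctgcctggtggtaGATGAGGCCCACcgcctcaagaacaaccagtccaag

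All of these windows are exonic and coding. On GRCh38 they lie at chr5:98893532-98893591 (CHD1, minus strand, exon 14), chr15:92956474-92956533 (CHD2, plus strand, exon 16), chr16:53242927-53242986 (CHD9, plus strand, exon 13), chr14:21406886-21406945 (CHD8, minus strand, exon 14), chr4:94276388-94276447 (SMARCAD1, plus strand, exon 15), chr4:143527964-143528023 (SMARCA5, plus strand, exon 7), chr9:2086829-2086888 (SMARCA2, plus strand, exon 18), chr19:11021725-11021784 (SMARCA4, plus strand, exon 19) and chr1:6136728-6136787 (CHD5, minus strand, exon 16). CHD9 and CHD8 encode the same residue at 19 of the 20 codons shown, 9 of them with another codon, and SMARCA2 and SMARCA4 do so at 20 of 20, 7 of them with another codon. G or C stands at the third base of 3 of 20 codons in CHD9, 5 in CHD1, 6 in SMARCA5, 7 in CHD8, 10 in CHD2, 10 in SMARCAD1, 14 in SMARCA2, 16 in SMARCA4 and 18 in CHD5. SMARCAL1, also called lower, is not shown and has 9 in its window. The order of these counts is not the order of the changes, and the window is a small share of each transcript.

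For the methyltransferases the window surrounds a conserved stretch of the SET domain that takes part in binding the methyl donor, with its 7 codons in capitals. KMT2A, KMT2C and SETD2 were at least 2-fold higher in siAARS1, and the means of KMT2B, KMT2D and SETD1A differed by at most 1.15-fold.
KMT2C: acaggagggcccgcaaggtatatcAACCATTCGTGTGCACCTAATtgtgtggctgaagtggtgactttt
KMT2D: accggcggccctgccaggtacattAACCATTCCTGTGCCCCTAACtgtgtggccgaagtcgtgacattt
KMT2A: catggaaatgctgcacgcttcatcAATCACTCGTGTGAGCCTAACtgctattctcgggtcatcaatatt
KMT2B: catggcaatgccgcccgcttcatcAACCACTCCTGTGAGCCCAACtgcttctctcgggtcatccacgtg
SETD2: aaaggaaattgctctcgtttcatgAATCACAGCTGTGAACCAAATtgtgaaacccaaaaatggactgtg
SETD1A: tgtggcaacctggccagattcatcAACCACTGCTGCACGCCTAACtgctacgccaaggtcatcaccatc

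The window of KMT2A lies in exon 36 at chr11:118521954-118522022 (plus strand) and that of KMT2B in exon 37 at chr19:35738339-35738407 (plus strand). The other 4 windows each cross a splice junction, between exons 57 and 58 of KMT2C, 52 and 53 of KMT2D, 7 and 8 of SETD2 and 18 and 19 of SETD1A. KMT2C and KMT2D encode the same residue at all 23 codons shown, 13 of them with another codon, and G or C stands at the third base of 9 codons in KMT2C and 14 in KMT2D. KMT2A and KMT2B encode the same residue at 20 of 23 codons, with G or C at the third base of 11 and 19 codons. SETD2 has 8 and SETD1A has 20.

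Listed genes took 30653210 to 33522573 reads a library, and the unit is CPM, the share of a library's reads that fall on a gene, not scaled for gene length. In bulk RNA such as this, fewer cells of a type and less RNA per cell cannot be told apart. The targeted gene, listed as AARS, was at 428 and 417 CPM in the control libraries against 292 and 298 in the siAARS1 libraries (log2 fold change -0.52 with an SE of 0.0357, limma adjusted p = 2.52e-11). Its siAARS1 mean was 0.697 of the control mean, so its RNA was reduced in part and not lost. Of the markers of gastric mucosa 0 of 5 were listed, of endothelium 0 of 3 and of leukocytes 1 of 4, CD68 at 0.486 to 1.10 CPM. Of 6 epithelial markers 3 were listed (KRT8, CDH1 and CLDN4, and not KRT18, KRT19 or EPCAM), and their summed level was 30.6 to 30.8 CPM in control and 8.002 to 9.358 CPM in siAARS1 libraries. Mesenchymal markers (3 of 4 listed, 5150.1 to 5209 against 4704 to 4814 CPM) and fibroblast markers (4 of 4 listed, 2805 to 2906 against 2098 to 2174 CPM) had high sums in both groups, set mostly by VIM and COL1A1. Within these lists ZEB1 was at 6.16 and 6.84 CPM in control cells against 50.03 and 52.3 CPM after knockdown, LUM at 118 and 125 against 211 and 225 CPM, and DCN at 239 and 250.3 against 258 and 270.1 CPM, the other way from the sums. The part of these differences in the results below was not tested.

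Of the 62 members 32 were higher and 14 lower in siAARS1, and 16 did not pass the test (limma on log2(CPM + 1), Benjamini-Hochberg adjusted p under 0.05 over all 14199 genes tested). Most genes of the table were called, 32.6% of them higher and 38.0% lower, so these counts are to be read against those shares. By size, 15 members were at least 2-fold higher, where 10.6% of all genes were, and 1 member, CHD5, was at least 2-fold lower, where 1.63% were. All 62 members passed the filter on low values (1 CPM or more as the mean of either group), as did 14199 of the 14431 genes listed. Every listed gene was above 1 CPM in at least 1 library. The median log2 fold change was 0.11 over the members and -0.05 over all genes tested. Scaling the libraries to equal medians lowered all values, to medians of -0.12 and -0.26, and left 23 members higher and 32 lower, so the changes given below are relative to the total reads of a library. The 2 groups of libraries did not overlap in 55 members, and in 85.1% of all genes. The summed level of the members was 5980 and 6067 CPM in control cells against 7027 and 6930 CPM after knockdown.

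**Figure D1:**
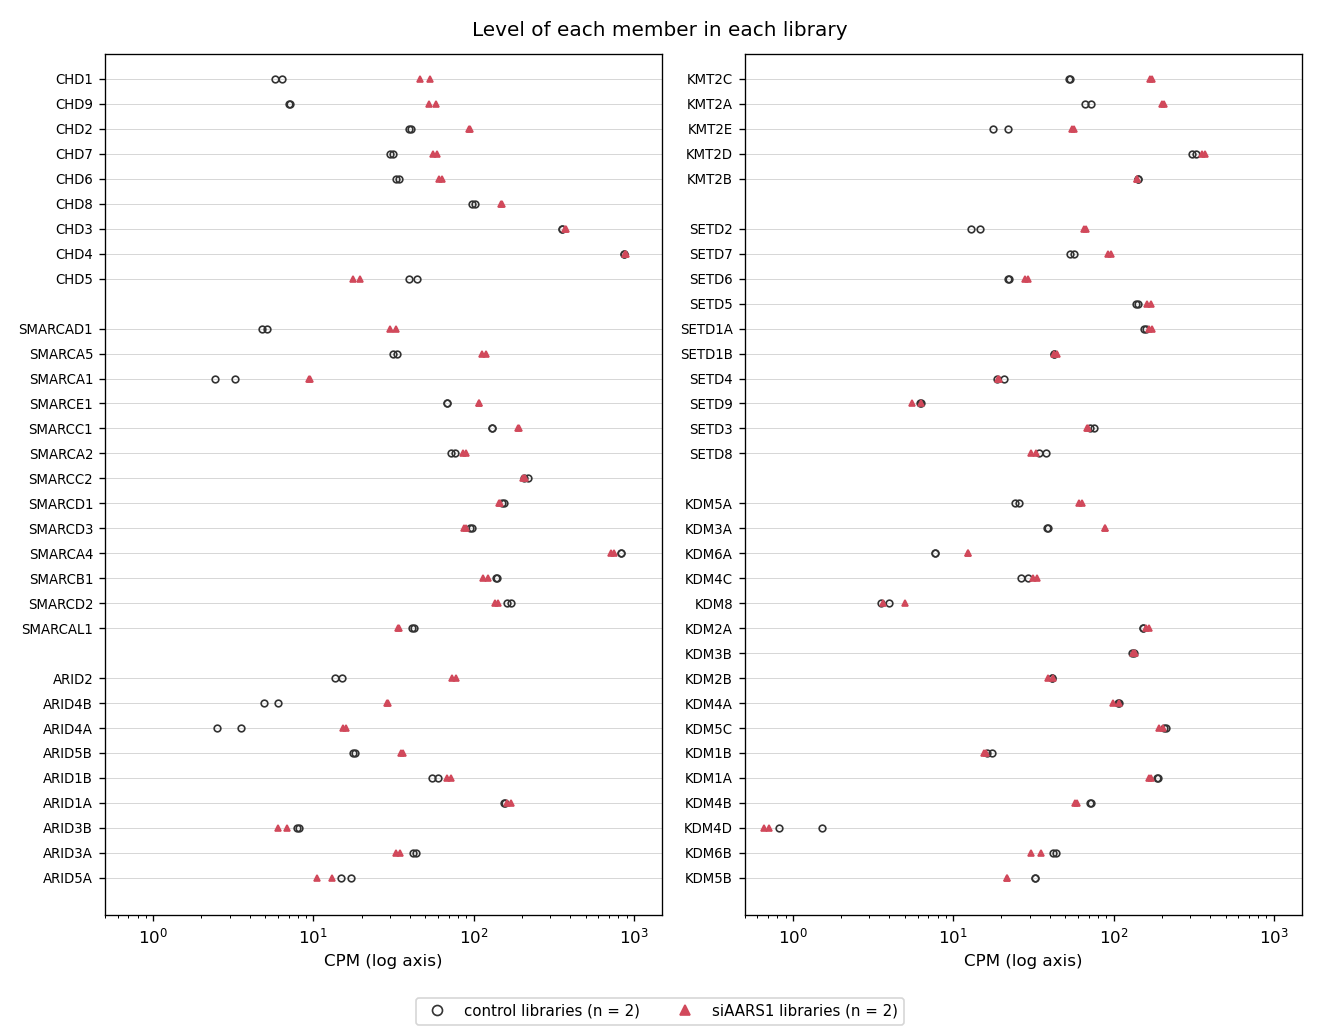
CPM (log axis) of the 62 members in each of the 4 libraries, as open circles for control and filled triangles for siAARS1, with genes ordered by log2 fold change within a family. CHD1 and CHD9 lie near 6 to 7 CPM in control and between 46.2 and 58.2 CPM in siAARS1 libraries, and the abundant CHD4 and SMARCA4 stay close together.

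The families differed in how their members were distributed. Among CHD genes 6 were higher, 1 lower and 2 not called (median log2 fold change 0.88), and among KMT2 genes 4 were higher and 1 was not called (median 1.46). ARID genes held 6 higher and 3 lower members (median 0.28). SMARC genes held 6 higher, 5 lower and 2 not called (median -0.05), SETD genes 5 higher, 1 lower and 4 not called (median 0.07), and KDM genes 5 higher, 4 lower and 7 not called (median -0.05). These are descriptions of small families, and differences between families were not tested.

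**Figure D2:**
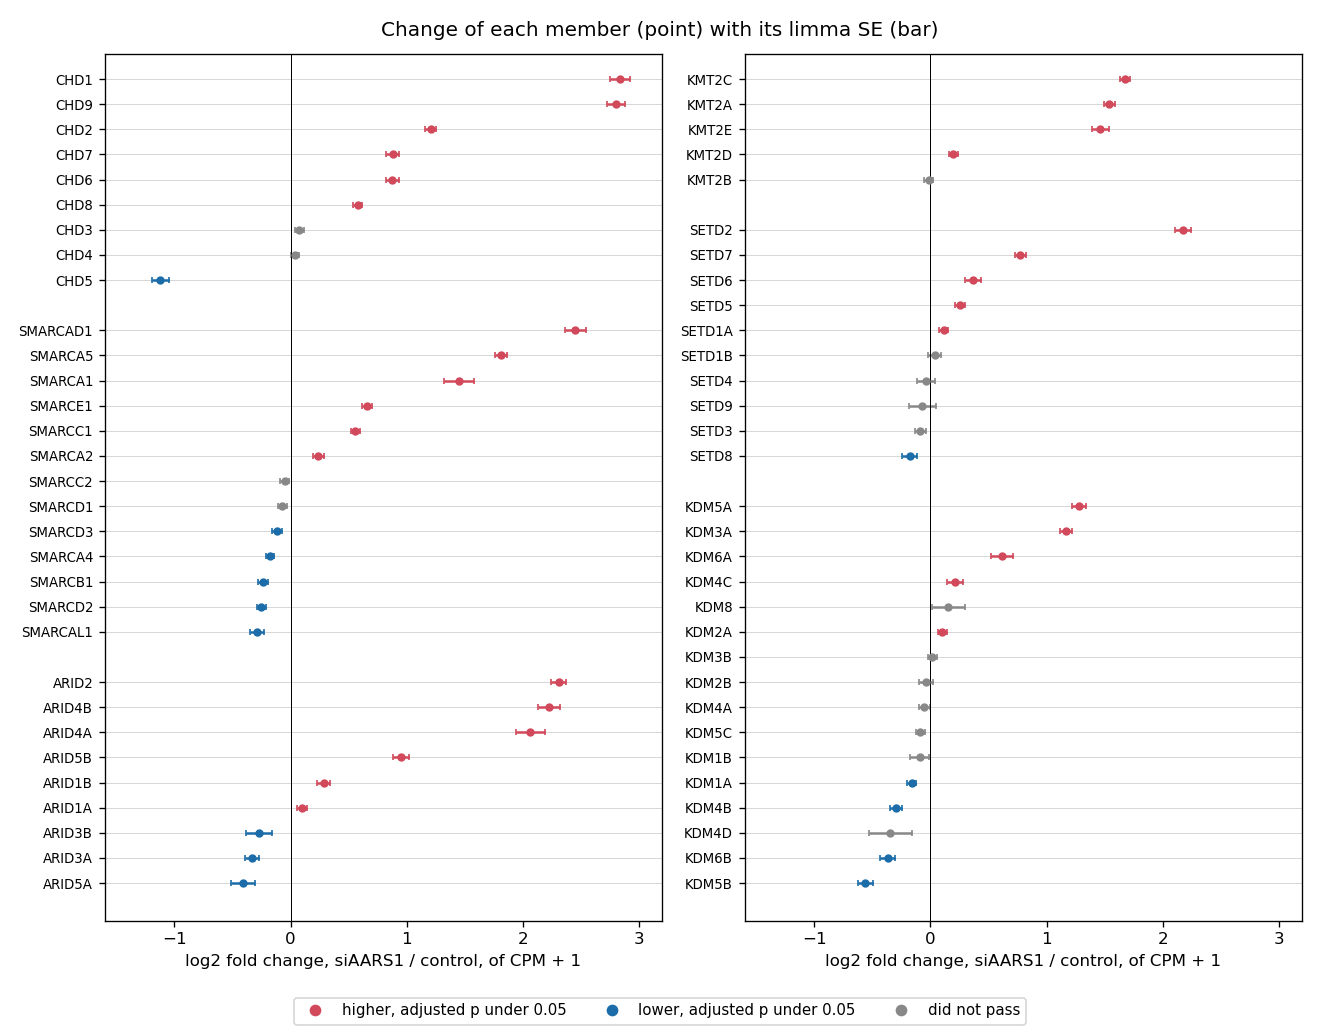
Log2 fold change (siAARS1 over control, of CPM + 1; points) with its limma SE (bars) for the 62 members, coloured by whether the adjusted p was under 0.05. The values run from 2.84 for CHD1 to -1.12 for CHD5, and each family with more than 5 genes holds both higher and lower called members.

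The motor subunits held the 3 members with the largest rises, CHD1, CHD9 and SMARCAD1. Of the 15 members with a SNF2-type ATPase 10 were higher, 3 lower and 2 not called, and 6 were at least 2-fold higher. Over all genes tested 32.6% were higher, 38.0% lower and 10.6% at least 2-fold higher. After the correction for GC content and length described below, 13 of the 15 were higher, 2 lower and 3 at least 2-fold higher. The shares over all genes were then 32.8%, 33.6% and 3.57%. CHD1, which binds methylated H3K4 and spaces nucleosomes in transcribed genes (ENSG00000153922; chromosome 5, 98853985 to 98928957), had 6.36 and 5.77 CPM in control cells against 46.2 and 53.1 CPM after knockdown. Both siAARS1 libraries were far above both controls, an 8.19-fold higher mean (log2 fold change 2.84 with an SE of 0.0861, limma adjusted p = 1.66e-17). CHD9 (ENSG00000177200; chromosome 16, 53055033 to 53329150) had 7.13 and 7.03 CPM in control cells against 52.6 and 58.2 CPM after knockdown. Its groups were as well separated (log2 fold change 2.80 with an SE of 0.0776, limma adjusted p = 4.04e-18). CHD2, the closest relative of CHD1 (ENSG00000173575; chromosome 15, 92900189 to 93028005), started from a higher level, 40.7 and 39.7 CPM, and reached 94.6 and 93.8 CPM. The 2 groups stood clearly apart (log2 fold change 1.21 with an SE of 0.0494, limma adjusted p = 2.80e-15), and the table names the microRNA gene MIR3175, which lies within CHD2, as a second symbol of this row.

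CHD7, CHD6 and CHD8, which form a subfamily with CHD9, rose less, by 0.88, 0.88 and 0.58 on the log2 scale. CHD8 had 97.9 and 101 CPM in control cells against 149 and 149 CPM after knockdown, so a gene close to CHD9 in sequence was 1.496-fold higher where CHD9 was 7.82-fold higher. CHD4, the main motor of the NuRD complex, was the most abundant member of its family per length, at 132 CPM per kilobase of transcript in control and 135 in siAARS1. It had 864 and 868 CPM in control cells against 897 and 883 CPM after knockdown, a log2 fold change of 0.04 that did not pass (95% interval -0.03 to 0.11, limma adjusted p = 0.305). CHD3, the second NuRD motor, was at 0.08 (95% interval 0.00 to 0.15, limma adjusted p = 0.0571). The third NuRD motor, CHD5, which is known from neurons and as a tumor suppressor (ENSG00000116254; chromosome 1, 6101793 to 6180123), went the other way. It had 44.1 and 39.7 CPM in control cells against 19.7 and 17.8 CPM after knockdown. Both siAARS1 libraries were below both controls (log2 fold change -1.12 with an SE of 0.0723, limma adjusted p = 8.07e-12), the largest fall of any member.

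SMARCAD1, a remodeler linked to the repair of DNA ends and to silent chromatin (ENSG00000163104; chromosome 4, 94207611 to 94291292), had 5.10 and 4.76 CPM in control cells against 30.1 and 32.8 CPM after knockdown. It was 6.38-fold higher (log2 fold change 2.45 with an SE of 0.0919, limma adjusted p = 6.17e-16). SMARCA5, the ISWI motor SNF2H (ENSG00000153147; chromosome 4, 143513463 to 143557486), had 31.3 and 33.1 CPM in control cells against 113 and 119 CPM after knockdown (log2 fold change 1.81 with an SE of 0.0519, limma adjusted p = 6.58e-18). The other ISWI motor, SMARCA1 or SNF2L (ENSG00000102038; chromosome X, 129446501 to 129523500), was scarce, at 2.43 and 3.25 CPM in control cells against 9.39 and 9.51 CPM after knockdown. It rose as well, by 1.45 on the log2 scale (SE 0.128, limma adjusted p = 1.57e-09).

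The SWI/SNF motors moved little. SMARCA4 (BRG1), the most abundant member per length in control at 144 CPM per kilobase, had 829.7 and 834 CPM in control cells against 756 and 717 CPM after knockdown (log2 fold change -0.18 with an SE of 0.0355, limma adjusted p = 0.000168). SMARCA2 (BRM), which can take its place in the complex, had 72.1 and 76.7 CPM in control cells against 86.0 and 89.8 CPM after knockdown (log2 fold change 0.24, limma adjusted p = 0.000167). In both genes the groups did not overlap, and the directions were opposite. Under median scaling SMARCA2 was at 0.01 and not called. SMARCA4 is one of 3 members, with SMARCB1 and SMARCD3, whose call turned to higher once GC content and transcript length were corrected for, as described below. SMARCAL1, which rewinds DNA at stalled replication forks, had 41.1 and 42.5 CPM in control cells against 33.9 and 34.2 CPM after knockdown and fell by 0.29 on the log2 scale (SE 0.0585, limma adjusted p = 0.000172).

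Among the non-motor subunits of SWI/SNF, SMARCE1 (BAF57) had 68.0 and 68.4 CPM in control cells against 108 and 109 CPM after knockdown (log2 fold change 0.66 with an SE of 0.0447, limma adjusted p = 2.06e-11). The annotation lists 7 processed pseudogenes of SMARCE1, so its reads could be split between copies. The scaffold subunit SMARCC1 was at 0.56, while its relative SMARCC2 was at -0.05 and not called. The ratio of SMARCC1 to SMARCC2 per kilobase went from 0.403 and 0.383 to 0.596 and 0.606. After the correction for GC content and length SMARCC1 was at 0.37 and SMARCC2 at 0.22, both called higher. SMARCD2 had 161 and 171 CPM in control cells against 143 and 136 CPM after knockdown and fell by 0.25 (limma adjusted p = 2.11e-05), a call that ended with the correction for GC content and length. SMARCC2 overlaps exons of MYL6, SMARCB1 those of DERL3 and SMARCD3 those of CHPF2, SMARCA5 overlaps its antisense gene SMARCA5-AS1, and use of strand in counting is not given, so reads of such pairs cannot be told apart. SMARCB1, the core subunit lost in rhabdoid tumors, fell by 0.24, SMARCD3 fell by 0.12, and SMARCD1 was at -0.07 and not called.

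The ARID proteins bind DNA through a shared domain. ARID2, the subunit that marks the PBAF form of SWI/SNF (ENSG00000189079; chromosome 12, 45729665 to 45908040), had 13.7 and 15.1 CPM in control cells against 73.4 and 77.3 CPM after knockdown. It was 5.23-fold higher (log2 fold change 2.31 with an SE of 0.0651, limma adjusted p = 5.26e-18). ARID4B (ENSG00000054267; chromosome 1, 235131634 to 235328219) and ARID4A (ENSG00000032219; chromosome 14, 58298385 to 58373887), partners of the SIN3 histone deacetylase complex, moved in step. ARID4B had 4.90 and 6.02 CPM in control cells against 28.9 and 29.3 CPM after knockdown (log2 fold change 2.22 with an SE of 0.0971, limma adjusted p = 8.82e-15). Part of its exons overlap RBM34 on the same strand and GGPS1 on the other. ARID4A had 2.49 and 3.53 CPM in control cells against 15.3 and 15.97 CPM after knockdown (log2 fold change 2.06 with an SE of 0.124, limma adjusted p = 2.33e-12).

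ARID5B had 17.8 and 18.2 CPM in control cells against 35.5 and 36.1 CPM after knockdown (log2 fold change 0.95, limma adjusted p = 4.82e-11). Its relative ARID5A, an RNA-binding regulator of inflammatory transcripts, went down, from 14.8 and 17.2 CPM to 13.1 and 10.5 CPM (log2 fold change -0.41, limma adjusted p = 0.00133). Without siAARS1 replicate 2 that call was lost, at -0.26 (limma adjusted p = 0.0619). ARID3A had 43.6 and 41.7 CPM in control cells against 32.9 and 34.6 CPM after knockdown and fell by 0.33 (limma adjusted p = 4.93e-05), and ARID3B fell by 0.28. None of the 3 falls was called once GC content and length were corrected for (ARID5A -0.07, ARID3A -0.01, ARID3B -0.01). ARID1B and ARID1A, which mark the BAF form of SWI/SNF, were higher by 0.28 and 0.10. When libraries were scaled to equal medians ARID1B was at 0.06 and not called, and ARID1A was at -0.13. ARID1A had 154 and 156 CPM in control cells against 171 and 162 CPM after knockdown (limma adjusted p = 0.0366), and its call was lost without control replicate 1, without control replicate 2 or without siAARS1 replicate 1, at 0.09, 0.11 and 0.06.

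Of the 5 KMT2 genes, which encode large H3K4 methyltransferases and a relative, 3 rose at least 2-fold. KMT2C (ENSG00000055609; chromosome 7, 152134922 to 152436005), which methylates H3K4 at enhancers, had 53.23 and 53.02 CPM in control cells against 169.8 and 173 CPM after knockdown (log2 fold change 1.67 with an SE of 0.0436, limma adjusted p = 1.58e-18). Segments of KMT2C are duplicated elsewhere in the genome, so its reads are uncertain where copies could share them. KMT2A, the MLL gene rearranged in leukemia (ENSG00000118058; chromosome 11, 118436464 to 118526832), had 66.4 and 72.7 CPM in control cells against 199.9 and 208 CPM after knockdown (log2 fold change 1.54 with an SE of 0.0468, limma adjusted p = 1.70e-17). KMT2E (ENSG00000005483; chromosome 7, 105014179 to 105114361), whose SET domain is thought to lack activity, had 17.8 and 21.8 CPM in control cells against 55.3 and 57.0 CPM after knockdown (log2 fold change 1.46 with an SE of 0.0750, limma adjusted p = 1.49e-13). Its exons overlap SRPK2 on the other strand.

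Their closest relatives moved far less on the deposited CPM. KMT2D, the partner of KMT2C at enhancers, had 309 and 328 CPM in control cells against 372 and 358 CPM after knockdown (log2 fold change 0.20, limma adjusted p = 0.000110; -0.031 under median scaling). KMT2B, the relative of KMT2A, had 142 and 142 CPM in control cells against 141 and 140.3 CPM after knockdown. The difference, -0.01 on the log2 scale, did not pass the test (95% interval -0.10 to 0.07, limma adjusted p = 0.755). After the correction for GC content and length described below, KMT2C was at 0.74 and KMT2D at 0.48. KMT2A was then at 0.89 and KMT2B at 0.30, and both pairs lay closer together than on the deposited CPM.

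SETD2, the main enzyme for H3K36 trimethylation in transcribed genes (ENSG00000181555; chromosome 3, 47016429 to 47163967), was the SETD gene with the largest change. It had 12.9 and 14.8 CPM in control cells against 65.2 and 66.9 CPM after knockdown, a 4.77-fold higher mean (log2 fold change 2.18 with an SE of 0.0692, limma adjusted p = 3.56e-17). SETD7, a monomethyltransferase of H3K4 and of other proteins, had 53.6 and 56.4 CPM in control cells against 93.0 and 96.5 CPM after knockdown (log2 fold change 0.77, limma adjusted p = 5.72e-12). SETD6 had 22.1 and 21.9 CPM in control cells against 28.01 and 29.45 CPM after knockdown (log2 fold change 0.37, limma adjusted p = 6.84e-05), and it overlaps CNOT1 on the other strand. SETD5 had 139 and 141 CPM in control cells against 172 and 163 CPM after knockdown (0.25, limma adjusted p = 1.32e-05). Under median scaling neither was called (SETD6 0.15, SETD5 0.02). SETD1A, the catalytic subunit of an H3K4-methylating COMPASS complex, was at 0.11 (-0.11 under median scaling), and its call was lost without control replicate 1 (0.10) or siAARS1 replicate 1 (0.08). SETD8, the H4K20 monomethyltransferase now named KMT5A, was the only SETD gene called lower, with 37.7 and 34.2 CPM in control cells against 32.7 and 30.5 CPM after knockdown (-0.18, limma adjusted p = 0.0210), a call lost without control replicate 1 (-0.11) or siAARS1 replicate 2 (-0.13) and after the correction for GC content and length (-0.01). SETD1B, SETD3, SETD4 and SETD9 lay between -0.09 and 0.03 and were not called.

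Demethylases at least 2-fold higher were KDM5A and KDM3A. KDM5A, an H3K4 demethylase first found as a partner of RB1 (ENSG00000073614; chromosome 12, 280129 to 389454), had 24.4 and 25.6 CPM in control cells against 60.8 and 63.3 CPM after knockdown (log2 fold change 1.28 with an SE of 0.0586, limma adjusted p = 2.06e-14). Its exons overlap CCDC77 on the other strand. Its paralogue KDM5B (ENSG00000117139; chromosome 1, 202724495 to 202809470) went the other way, with 32.6 and 32.5 CPM in control cells against 21.7 and 21.8 CPM after knockdown (log2 fold change -0.56 with an SE of 0.0666, limma adjusted p = 1.76e-07). The third member measured of this group, KDM5C, was at -0.09 and not called (limma adjusted p = 0.0555).

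KDM3A, an H3K9 demethylase induced by hypoxia (ENSG00000115548; chromosome 2, 86440647 to 86492716), had 38.6 and 39.0 CPM in control cells against 88.0 and 88.7 CPM after knockdown (log2 fold change 1.17 with an SE of 0.0499, limma adjusted p = 6.01e-15). Its relative KDM3B was at 0.02 and not called. KDM6A, the X-linked H3K27 demethylase UTX, had 7.68 and 7.72 CPM in control cells against 12.3 and 12.3 CPM after knockdown (log2 fold change 0.62, limma adjusted p = 1.03e-05), while KDM6B fell by 0.37. KDM4B and KDM1A (LSD1) fell by 0.30 and 0.16. None of these 4 was called once GC content and length were corrected for (KDM6A -0.13, KDM6B -0.03, KDM4B 0.05, KDM1A -0.02). KDM4C and KDM2A were higher by 0.21 and 0.10 (-0.010 and -0.13 under median scaling). The calls of KDM4C and KDM2A were each lost when 1 library was left out, KDM4C without control replicate 2 (0.14) or siAARS1 replicate 2 (0.17) and KDM2A without control replicate 1 (0.10), control replicate 2 (0.10) or siAARS1 replicate 1 (0.08). KDM1B, KDM2B, KDM4A and KDM8 were not called and lay between -0.09 and 0.15. KDM4D was the scarcest member, at 1.52 and 0.819 CPM in control cells against 0.712 and 0.662 CPM after knockdown, and was not called (limma adjusted p = 0.0968).

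Ratios per kilobase of transcript were taken in 20 pairs of genes, most of them close relatives, and some genes recur across pairs. The 2 groups of libraries did not overlap in 18 of them, a share to be set beside the 85.1% of single genes, and the 18 include CHD4 over CHD3, which was 2.72 and 2.73 in control and 2.64 and 2.66 in siAARS1 libraries. With 2 libraries against 2 an exact permutation test of a single ratio cannot go below p = 0.333 (two-sided), so these are descriptions. The ratios rest on the deposited CPM, without the correction for GC content and length described below. KMT2A over KMT2B was 0.238 and 0.261 in control and 0.723 and 0.755 in siAARS1 libraries. KMT2C over KMT2D was 0.199 and 0.186 in control and 0.526 and 0.558 in siAARS1 libraries. KDM5A over KDM5B crossed from below to above an equal level, with 0.720 and 0.756 in control and 2.69 and 2.79 in siAARS1 libraries. CHD9 over CHD8 went from 0.0536 and 0.0511 to 0.259 and 0.288, and CHD4 over CHD5 from 28.7 and 32.0 to 66.9 and 72.8. The exceptions were pairs whose genes rose together: SMARCA5 over SMARCA1 was 5.78 and 4.59 in control and 5.41 and 5.61 in siAARS1 libraries, and ARID4B over ARID4A was 1.95 and 1.69 against 1.87 and 1.82.

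The changes followed the GC content of the transcripts, among the members as among all genes. Ranked over the 62 members, log2 fold changes correlated at -0.75 with transcript GC content, -0.73 with GC content at the third codon position and 0.49 with transcript length. Over the 13819 genes with an annotated transcript it was -0.65 with GC content and 0.30 with length, and over the 12312 of them with a coding sequence it was -0.68 with GC content at the third position. These describe genes that share the same 4 libraries. The 15 members at least 2-fold higher had a transcript GC content of 35.9% to 46.9% (median 41.1%) and a median length of 8095 bases, and the other 47 members had 41.8% to 64.8% (median 51.8%) and 5867 bases. In the fifth of all genes with the lowest GC content, up to 41.6%, all 8 members were at least 2-fold higher, where 39.1% of the genes were, and 79.99% were called higher at any size. Among the genes of highest GC content, from 59.2%, 1 of 9 members was higher and 6 were lower, where 5.07% of the genes were called higher. The share of genes called lower there was not counted, so the 6 cannot be set against it. The median log2 fold change there was -0.30 over all genes and -0.18 over the 9 members. Under 48% GC lay all 15 of these members and 11 of the others, and all were called higher but KDM5B, which fell at 44.4% GC, and SETD3 and SETD9, which were not called at 45.3% and 45.5% GC.

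**Figure D3:**
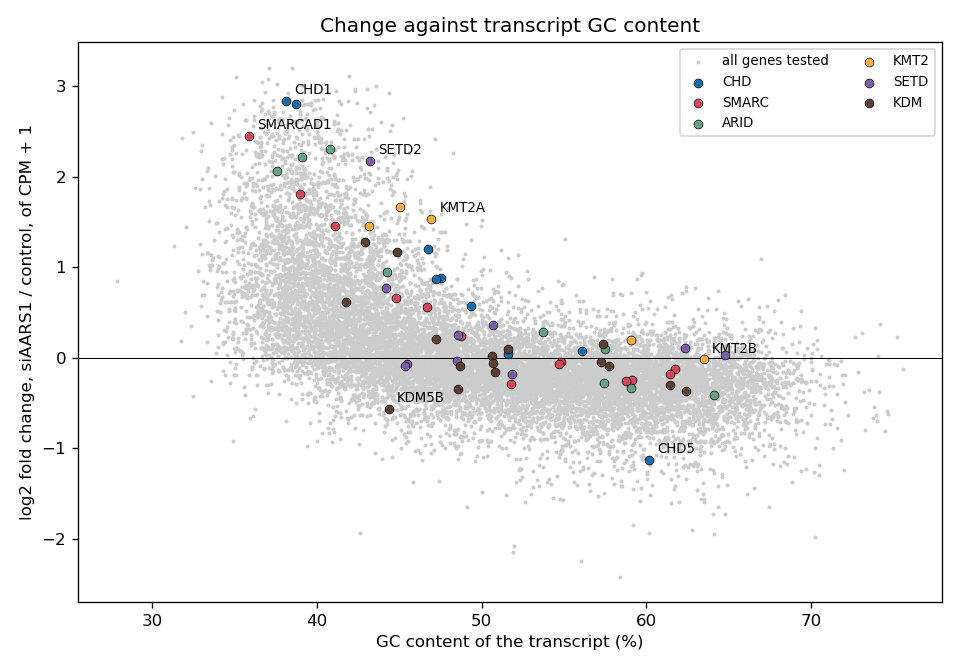
Log2 fold change (siAARS1 over control, of CPM + 1) against the GC content of the transcript for all genes with an annotated transcript (grey points) and for the 62 members (coloured by family). Members lie within the cloud of all genes, with CHD1 at 38.1% GC and 2.84 at the upper left, and CHD5 at 60.2% GC and KDM5B at 44.4% GC below most members of similar GC content.

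The 2 libraries of a group were alike in this relation. The rank correlation, over all genes, between transcript GC content and the deviation of a library from the gene's mean was 0.64 and 0.63 in the control libraries and -0.59 and -0.67 in the siAARS1 libraries. Deviations within a gene sum to 0 over the libraries, so the opposite signs are partly built in. The part of base composition and length in the results was not tested. A correction that takes the smooth trend with GC content and length out of every library left 32.8% of genes higher, 33.6% lower and 3.57% and 2.20% at least 2-fold higher and lower. Any change in the cells that runs along GC content or length is removed with the trend.

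After this correction 43 members were higher, 4 lower and 15 not called, and the median log2 fold change of the members was 0.26 against -0.01 for all genes. In 33 of the 46 members called the call and its direction were kept. Calls ended in 10, namely the lower ARID3A, ARID3B, ARID5A, KDM1A, KDM4B, KDM6B, SETD8 and SMARCD2 and the higher KDM6A and KDM4C, so that of 14 lower members 3 were still called lower. Over all genes tested, 4633 were called higher and 5399 lower before the correction. Of those genes 5532 kept their call and direction, and 1490 were called in the other direction. The 6 members still at least 2-fold higher were CHD1 (1.45), CHD9 (1.40), SETD2 (1.40), SMARCAD1 (1.16), ARID2 (1.16) and ARID4B (1.10). KMT2A was then at 0.89, KMT2E at 0.76, KMT2C at 0.74, SMARCA5 at 0.44 and KDM5A at 0.30, all still called higher. CHD5 was at -0.82. KDM5B became the largest fall, at -1.29 (limma adjusted p = 2.55e-12). SMARCA4 (0.17), SMARCB1 (0.10) and SMARCD3 (0.24) turned from lower to higher, 10 members not called before were called higher, among them CHD4 (0.23) and KMT2B (0.30), and SETD3 (-0.26) was called lower. Within the members a rank correlation of -0.43 with GC content and 0.50 with length remained, against 0.04 and -0.02 over all genes. The relation to length within the members, 0.49 before the correction, was not reduced, so their corrected values still ran along both traits.

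**Figure D4:**
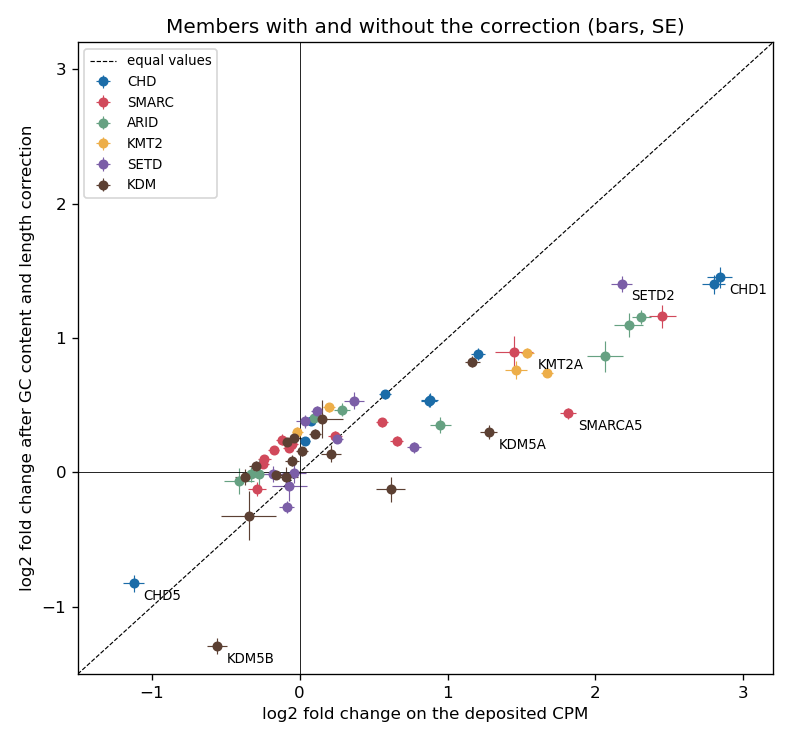
Log2 fold change of each member on the deposited CPM (x axis) against its value after the correction for GC content and length (y axis), coloured by family, with bars for the limma SE and a dashed line of equal values. Members at least 2-fold higher lie below the line, such as CHD1 at 2.84 and 1.45, and KDM5B moves from -0.56 to -1.29.

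Partners of the members in the same complexes, other remodelers, other methyltransferases and other JmjC proteins were followed in 11 lists. Of 141 genes 135 were listed, with 57 higher, 40 lower and 38 not called, and 26 were at least 2-fold higher and 0 at least 2-fold lower. Over all genes tested 32.6% were higher, 38.0% lower, and 10.6% and 1.63% at least 2-fold higher and lower, and the counts of the single lists below are small. The median log2 fold change was 0.06 on the deposited values and 0.17 after the correction. After it 12 genes were at least 2-fold higher, where 3.57% of all genes were. Of the 97 genes called, 44 kept their call and direction after the correction and 20 were called in the other direction. Over all genes tested, with 4633 called higher and 5399 lower, 5532 kept call and direction and 1490 were called in the other direction. Among the ISWI partners 6 of 9 were higher and 2 lower, led by RSF1 (2.62), BAZ1A (2.58) and BAZ2B (2.50), which pair with SMARCA5 or SMARCA1. Other SNF2 helicases were higher in 9 of 12 genes and lower in 1, led by ATRX (2.69), SHPRH (2.45) and HLTF (2.23). At least 2-fold higher were 8 of these helicases before and 3 after the correction, with medians of 1.42 and 0.65. Of the ISWI partners 5 were at least 2-fold higher both before and after it. The other SWI/SNF subunits held 5 higher and 7 lower of 17, with the PBAF subunit PBRM1 at 1.94, PHF10 at 0.46 and DPF1 at -0.62. PBRM1, which like ARID2 belongs to the PBAF form, had 15.7 and 16.3 CPM in control cells against 62.9 and 65.6 CPM after knockdown.

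The other partner lists were mixed. NuRD partners held 4 higher and 3 lower of 12, with HDAC2 at 0.63, RBBP4 at 0.35 and RBBP7 at 0.20, and after the correction HDAC2 (-0.90) and RBBP4 (-0.68) were called lower. INO80 and SRCAP family genes held 5 higher and 9 lower of 20, with INO80D at 1.87, UCHL5 at 1.21 (then -0.28, called lower) and ACTR6 at 0.65. COMPASS subunits and partners of KMT2 or SETD1 enzymes, not all of them shared, held 8 higher and 2 lower of 15. Among them were BOD1L1 at 2.03, HCFC2 at 1.26 and PSIP1 at 0.97. PRC2, which methylates H3K27, held 5 higher and 2 lower of 10, with SUZ12 at 2.01, MTF2 at 1.19 and AEBP2 at 0.78 (then -0.42, called lower).

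Among the remaining methylation enzymes, H3K9 methyltransferases held 3 higher and 1 lower of 7, with SETDB2 at 1.26, SUV39H2 at 1.21 and PRDM2 at 0.44. Other lysine methyltransferases held 6 higher and 4 lower of 12. ASH1L, an H3K36 methyltransferase, led them at 2.51, from 17.6 and 16.99 CPM to 103 and 103 CPM, followed by SUV420H1 (now KMT5B) at 1.22 and NSD1 at 1.16. Other JmjC proteins, not all of them histone demethylases, held 3 higher and 7 lower of 13. JMJD1C was at 2.58, MINA (now RIOX2) at 0.75 and TYW5 at 0.61. Arginine methyltransferases held 3 higher and 2 lower of 8, with PRMT3 at 0.73, PRMT10 (now PRMT9) at 0.71 and CARM1 at -0.29. Each value named here was called on the deposited CPM (limma adjusted p under 0.05).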

How the data were processed

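The authors deposited 1 table of CPM values for 4 libraries, with per-library columns and columns of their own comparison (fold changes, p-values), which were not used. RSEM 1.3.3 and hg38 are named in the submitters' processing notes with no role, and the aligner, annotation, use of strand and filter are not given in the sources used here. Every deposited CPM value was a whole multiple of 1 read (0.0293 to 0.0324 CPM; 100% of values within 0.0006 CPM). A count of 0 allows up to 3 reads, or 0.0880 to 0.0971 CPM (counting error only).

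Genes whose mean reached 1 CPM in either group were tested with limma 3.58.1 (R 4.3.3, eBayes with a trend) on log2(CPM + 1), which understates changes of low genes. P-values were adjusted by Benjamini-Hochberg over 14199 genes, with a threshold of 0.05. SE and 95% intervals are limma's. Groups came from the sample titles. Replicates correlated with r = 0.997 within groups and 0.939 to 0.948 between them across genes, and their counts differed beyond sampling noise.

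GENCODE v29 (GRCh38) gave coordinates, overlaps, coding windows, and GC content and length of a single transcript per gene (97.2% of listed identifiers and all 62 members). That transcript was picked by its APPRIS principal and CCDS tags, then by the length of its coding sequence, then by its total length. The correction used mgcv 1.9.3. Alternatives included edgeR 4.0.16 and DESeq2 1.42.0 on the recovered reads. Fits were tested on simulated data. The rule for members reads symbols and no measured value, but the families and the lists were chosen with earlier results of these data known. Per-library values are given for the 4 called members with the largest change in each family, for the 2 with the largest fall where these 4 hold none, and for others that a comparison needed. Lists are represented by their 3 called genes of greatest absolute change.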

Additional observations from a re-analysis of the deposited data

How the results depend on the processing

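The number of members called was 46 and stayed between 40 and 55 under all alternatives, and all genes called ranged from 8355 (DESeq2) to 11378 (median scaling) against 10032. Members at least 2-fold changed were 16, and 7 once GC content and length were corrected for, both without and with the replicate block; the other alternatives gave 14 to 17. Median scaling moved the median of all genes from -0.05 to -0.26, and the higher share of called members from 69.6% (32 of 46) to 41.8% (23 of 55); the correction moved it to 91.5%. Over all genes that share was 46.2%, with 29.7% under median scaling and 49.4% after the correction. Among members called in at least 1 of the fits compared, signs reversed under median scaling in ARID1A (-0.13), CHD3 (-0.15), CHD4 (-0.19), KDM4C (-0.010), KDM2A (-0.13), KDM3B (-0.21), KMT2D (-0.031), SETD1A (-0.11) and SETD1B (-0.19). Under the correction, with the same values when the replicate block was added, they reversed in KDM6A (-0.13), KDM2B (0.26), KDM5C (0.23), KDM4B (0.046), KMT2B (0.30), SMARCC2 (0.22), SMARCD1 (0.18), SMARCD3 (0.24), SMARCA4 (0.17), SMARCB1 (0.10) and SMARCD2 (0.066), and KDM4A, at 0.088 in both, was called only with the block. The cause was not tested.

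Both groups number their libraries 1 and 2, and no label states that they are paired. The serial numbers in the column names of same-numbered libraries are adjacent, and what that order reflects is not given. Across genes, same-numbered libraries deviated together at r = 0.118, over only 2 pairs. With the replicate block 47 members were called, KDM5C (-0.09) in addition. Without 1 library, where the lone library of a group is assumed to vary like the others, 40 to 44 members were called, 16 of them at least 2-fold changed in each fit, and 8 members lost their call in at least 1 fit; besides those given above these were ARID3B (-0.26, -0.29 and -0.19) and SMARCD3 (-0.13, -0.10 and -0.10), without control replicate 1, control replicate 2 and siAARS1 replicate 1 in turn. Both, and SETD8, also lost their call with edgeR (TMM) and DESeq2, ARID1A and KDM4C with quantile normalization, and ARID1A and KDM2A with edgeR on library size only. AARS1 ranged from -0.75 to -0.29, always lower and called. The partner lists (alternatives added after seeing the data) had 77 to 119 called genes against 97. KDM4D, KDM8 and SETD9, none of them called, rest on the fewest reads, and power at their depth was not tested.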
